A study of Mus musculus with 2 samples.

Results

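The genes described here encode the nuclear-encoded subunits of the oxidative phosphorylation machinery of mitochondria, in wounded mouse skin with and without the vitamin D receptor in keratinocytes. They were found by symbol in the annotated table, taking the Nduf, Sdh, Uqcr, Cox and Atp5 subunit names with Cyc1 and Cycs, and a gene's measured value does not decide whether it belongs. This gave 73 of the 17871 genes on the array: 29 of complex I, 3 of complex II, 8 of complex III with cytochrome c, 11 of complex IV, 15 of complex V, 3 muscle isoforms, 2 other tissue isoforms and 2 associated proteins. Symbols are those of the array, so Cox6b is the gene now named Cox6b1 and Uqcr the gene now named Uqcr11.

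The data are 2 Illumina bead arrays, 1 per genotype, of wounded back skin. The mice were C57BL6, aged 3 months and kept on a diet low in calcium. Control mice carried the floxed Vdr gene without Cre (VDR fl/fl), and knockout mice carried it with Cre driven by the keratin 14 promoter (VDR fl/fl K14 driven Cre), so that the gene is removed in keratinocytes that express keratin 14. Each mouse had 2 wounds, made with a 6 mm punch through the full skin, and tissue was cut out 3 days later with an 8 mm punch. The series' design text states that RNA of 3 mice went into each sample. It also gives n = 3 for the genotypes, while the series holds 1 array of each. With 1 array per genotype there is no replicate, no test and no p-value, and the number of arrays limits the precision. Every difference is the log2 normalized intensity of the knockout array minus that of the control array and describes these 2 arrays.

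The respiratory chain passes electrons from NADH (complex I) and succinate (complex II) through complex III and cytochrome c to oxygen at complex IV. The protons that complexes I, III and IV move across the inner mitochondrial membrane drive the ATP synthase, complex V. Most subunits are encoded in the nucleus and the remainder in mitochondrial DNA, which the names used here do not cover. A few complex IV subunits have separate genes for heart and skeletal muscle. In mouse back skin the nearest skeletal muscle is the panniculus carnosus, a thin sheet below the dermis and fat.

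Promoters are shown for 2 ubiquitous and 2 muscle forms of complex IV subunits, since these kinds of gene are set apart in the results. Each is the 250 bases before the transcription start in RefSeq (GRCm38.p6), with every match to a searched motif in capitals.

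Cox6a1, chr5:115348959-115349208, minus strand: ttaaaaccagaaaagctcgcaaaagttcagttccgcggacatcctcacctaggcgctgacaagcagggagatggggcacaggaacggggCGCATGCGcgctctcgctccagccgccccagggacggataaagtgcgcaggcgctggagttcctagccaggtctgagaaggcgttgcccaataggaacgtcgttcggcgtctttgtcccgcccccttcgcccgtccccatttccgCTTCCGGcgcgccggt

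Cox8a, chr19:7217617-7217866, minus strand: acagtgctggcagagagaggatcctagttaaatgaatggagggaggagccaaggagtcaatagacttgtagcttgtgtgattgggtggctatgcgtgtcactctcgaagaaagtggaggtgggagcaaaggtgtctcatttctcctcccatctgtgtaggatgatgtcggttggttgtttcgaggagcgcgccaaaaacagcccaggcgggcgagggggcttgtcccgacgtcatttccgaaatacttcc

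Cox7a1, chr7:30183921-30184170, plus strand: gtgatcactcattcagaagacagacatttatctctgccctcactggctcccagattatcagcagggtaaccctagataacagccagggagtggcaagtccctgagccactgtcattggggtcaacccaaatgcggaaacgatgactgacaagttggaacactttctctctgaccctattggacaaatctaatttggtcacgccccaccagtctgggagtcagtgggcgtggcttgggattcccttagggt

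Cox8b, chr7:140900447-140900696, minus strand: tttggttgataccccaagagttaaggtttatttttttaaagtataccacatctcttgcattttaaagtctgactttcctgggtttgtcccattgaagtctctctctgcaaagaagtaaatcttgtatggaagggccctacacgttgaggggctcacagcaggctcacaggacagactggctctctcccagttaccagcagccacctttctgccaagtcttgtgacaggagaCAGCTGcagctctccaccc

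The ubiquitous promoters of Cox6a1 and Cox8a hold 26 and 11 CpG dinucleotides, and those of the muscle genes Cox7a1 and Cox8b hold 4 and 1. The promoters shown are examples. Ubiquitous complex IV genes ran from 5 CpG (Cox7b) to 26 (Cox5a and Cox6a1). Cox7a2, the ubiquitous counterpart of Cox7a1, had 14, and Cox6a1 alone of these ubiquitous genes held the NRF-1 core. Short motifs were searched on both strands: the NRF-1 core GCATGCG, the ETS core CCGGAAG (the family of GABPA), the YY1 core AAGATGG, the TATA box TATAAAA and the E-box CAGCTG, bound by myogenic factors. In Cox6a1 an NRF-1 core lies 161 bases before the start, overlapping its match on the other strand at 160, and an ETS core lies 16 bases before it. Cox8b has an E-box 19 bases before the start, and the other 2 windows hold no match. NRF-1 and GABPA are known as regulators of many respiratory chain genes. Of the 73 genes 59 had a promoter in the table, and 8 of these (13.6%) hold the NRF-1 core, against 3.79% of 17492 protein-coding genes and 3.07% of all 27025 promoters. The ETS core is present in 11 of 59 (18.6%), against 9.13% of protein-coding genes and 7.05% of all promoters. The YY1 core is in none of the 59 (4.10% and 4.53%), the TATA box in 2 (3.39%, against 5.13% and 5.30%) and the E-box in 5 (8.47%, against 11.6% and 12.8%). The median CpG count is 14 for the 59 genes, 10 for protein-coding genes and 6 for all promoters. A match describes the letters in this window only.

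Oxidative phosphorylation genes were close between knockout and control wounded skin. By the brightest probe of each gene, the largest difference among those detected on both arrays was 1.21-fold, at Cyc1. A dimmer Sdhb probe differed by -0.30. Detection was set by floors in normalized intensity, 172.3 for control and 176.8 for knockout, below which a probe is not counted as detected. Both arrays detected 65 of the 73 genes, 7 reached neither floor and Sdhd reached that of the control array alone. Among the 65, 29 were higher and 36 lower, the median difference being -0.01, while 53.9% of all 8931 genes detected on both arrays were higher, with a median of 0.02. The plain raw signals, centred on the median of each array, gave 18 higher and 47 lower, so the split by sign depends on the scaling. The median of all genes was then -0.04 and that of the members -0.06.

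By the brightest probe, no member was at least 1.2-fold higher and 1 was at least 1.2-fold lower, against 14.6% and 10.4% of all detected genes. A dimmer Atp5j probe differed by 0.27. At 1.5-fold no member passed in either direction, against 3.55% of genes higher and 2.51% lower. Many of these genes have bright probes, so the share was also taken over genes with a mean intensity of 1000 or more. There 16.7% of 3144 genes were at least 1.2-fold higher and 11.7% lower, while of 52 members none was higher and 1 lower. The SD of the log2 difference was 0.11 over the 65 members, 0.39 over all detected genes and 0.48 over the bright genes. Both larger SDs include extreme genes, down to -6.54, and the quartiles lay closer. They were -0.10 and 0.04 for the members, -0.11 and 0.16 for all detected genes, and -0.13 and 0.17 for the bright genes. Different probes of the same gene varied in their difference with an SD of 0.14 over 2131 genes. This SD comes from the same 2 arrays and holds no variation between replicates. Of the 65 members, 49 (75.4%) differed by no more than this SD, against 51.1% of all detected genes. Conversely, 24.1% of detected genes differed by more than any member did.

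**Figure D1:**
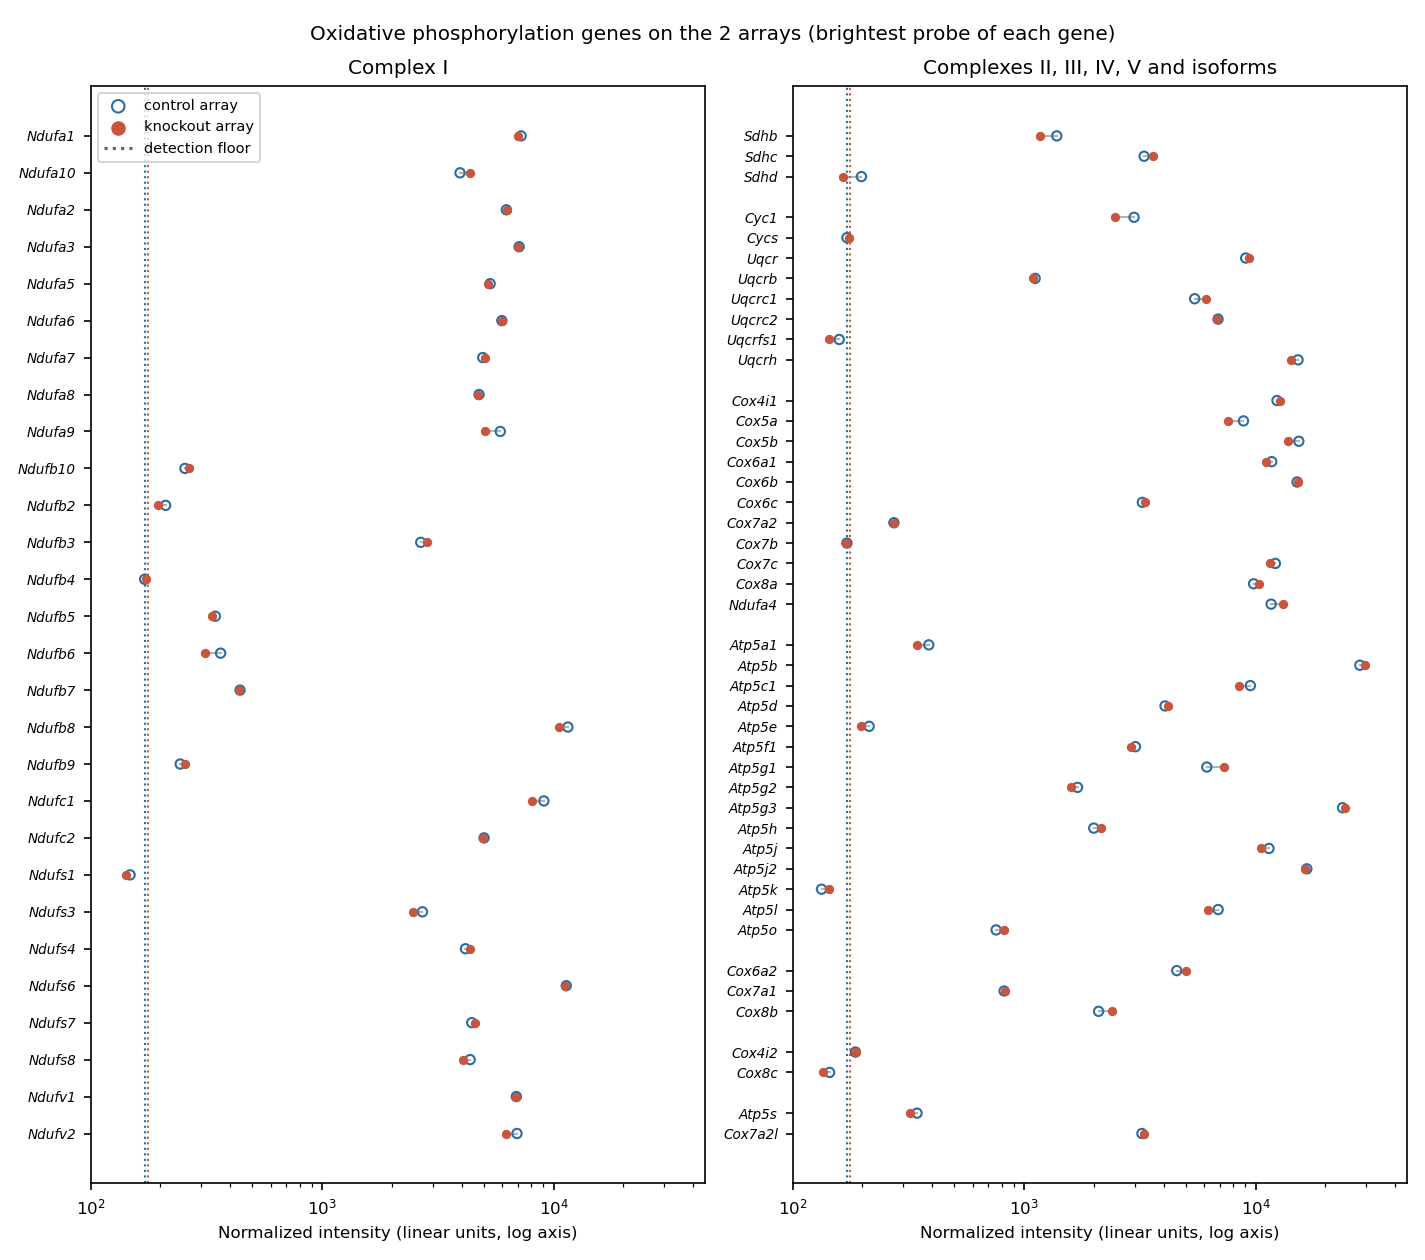
Normalized intensity of 72 of the 73 genes on the control array (open circles) and the knockout array (filled circles), on a log axis, by the brightest probe of each gene, with dotted lines at the detection floors. The circles of each pair lie close together, the widest gap among genes detected on both arrays being Cyc1 at 2983 and 2472.

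**Figure D2:**
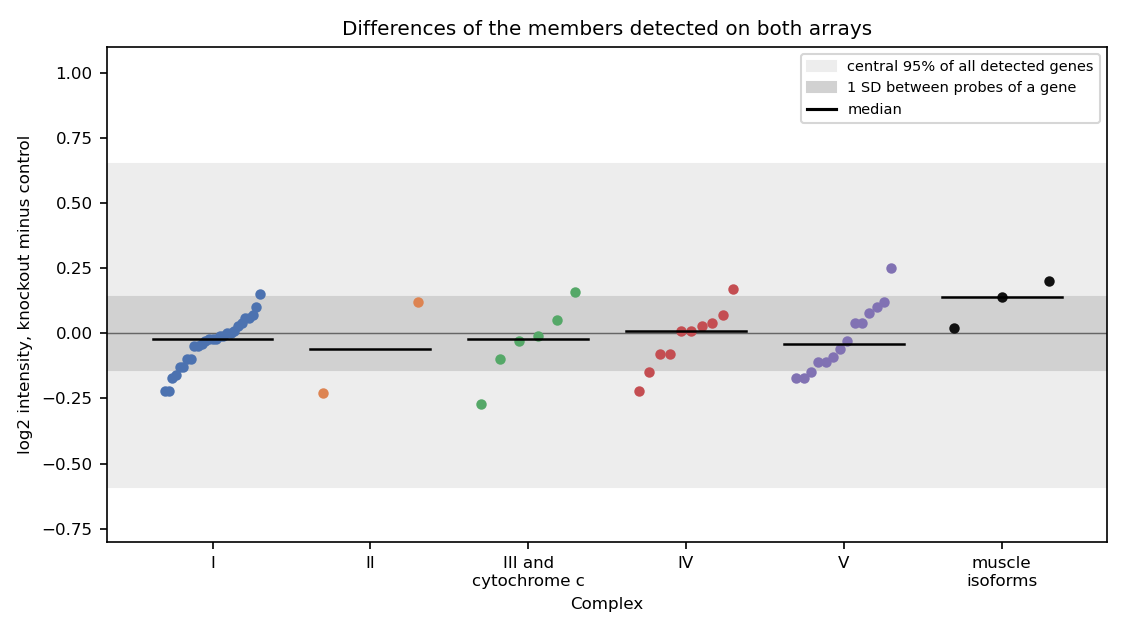
The log2 difference, knockout minus control, of each member of complexes I to V and of each muscle isoform detected on both arrays, with the median as a bar. Cox4i2, Atp5s and Cox7a2l, also detected on both, are not drawn. The dark band is 1 SD between probes of a gene (0.14 on either side of 0) and the light band the central 95% of all detected genes (-0.59 to 0.65). Of all 65 members, drawn or not, 49 have differences within the dark band, and every point lies within the light one.

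Complex I, the NADH dehydrogenase, had 27 of its 29 genes detected on both arrays, with 9 higher, 18 lower and none past 1.2-fold. Their median was -0.02 and their range -0.22 to 0.15. The core subunits, which carry the flavin and the iron-sulphur clusters or bind the quinone and have bacterial relatives, were 7 genes. Ndufv1, the subunit that binds NADH and the flavin, had an intensity of 6896 (control) and 6883 (knockout), the order used for every pair below. Its partner Ndufv2, with an iron-sulphur cluster, was at 6940 and 6195, a difference of -0.16. Ndufs7, near the quinone site, was at 4427 and 4565, Ndufs3 at 2711 and 2476 and Ndufs8, which holds iron-sulphur clusters, at 4357 and 4076. Of the 6 core genes detected, 1 was higher and 5 lower, with a median of -0.07 and none past -0.16. Ndufs1, the largest subunit of the complex, had a single probe that was below the floor on both arrays at 148 and 142.

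The accessory subunits, which surround the core and serve in assembly and stability, were 22 genes, 21 of them detected, with 8 higher and 13 lower and a median of -0.02. Ndufa9, which binds a nucleotide cofactor beside the quinone site, was at 5879 and 5062, 1.16-fold lower in the knockout. Ndufb6, a membrane-arm subunit, was at 365 and 313, 1.17-fold lower, and Ndufc1 at 9067 and 8036, 1.13-fold lower, with its dimmer probe closer at 2244 and 2186. In the other direction Ndufa10, of the membrane arm, was at 3940 and 4370, the highest difference of the complex at 0.15. These accessory genes were the extremes. In between, Ndufa1 was at 7228 and 7002, and Ndufs6, a zinc-binding subunit, at 11328 and 11143. Ndufs4, a subunit whose loss in mice gives a Leigh-like encephalopathy, shows the limit of single probes: its 4 detected probes gave differences of 0.06, 0.22, -0.05 and -0.08. Ndufb8 was at 11511 and 10508. The accessory genes Ndufa2, Ndufa3, Ndufa5, Ndufa6, Ndufa7, Ndufa8, Ndufb3 and Ndufc2 had differences between -0.03 and 0.10. Ndufb2, Ndufb5, Ndufb7, Ndufb9 and Ndufb10 had dim probes, between 196 and 442, and differences between -0.10 and 0.07, and Ndufb4 lay at the floor, at 171 and 174.

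Complex II, succinate dehydrogenase, also serves the citric acid cycle and was represented by 3 genes, since no probe of Sdha, the flavoprotein, was matched. Sdhb, the iron-sulphur subunit, was at 1384 and 1176, 1.18-fold lower in the knockout. A separate Sdhb probe gave 1161 and 941, a difference of -0.30, and a further one was below the floor at 141 and 144. Sdhc, a membrane anchor, was at 3297 and 3589, 1.09-fold higher. Sdhd, the other anchor, reached the control floor alone, at 198 against 165, which bounds it at 1.12-fold lower or more. Sdhb and Sdhc, parts of a single enzyme, thus differed in opposite directions, and the complex had a median of -0.06 over 2 genes.

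Complex III, the cytochrome bc1 complex, and cytochrome c had 6 of 8 genes detected, with 2 higher and 4 lower and a median of -0.02. Cyc1, the cytochrome c1 subunit that hands electrons to cytochrome c, was at 2983 and 2472, a difference of -0.27 on its single probe. It was the 1 member past 1.2-fold by the brightest probe. Uqcrc1, a core protein on the matrix side, was at 5451 and 6091, 1.12-fold higher, while its counterpart Uqcrc2 was at 6876 and 6811. The hinge protein gene Uqcrh was at 15235 and 14264, Uqcr at 9052 and 9363 and Uqcrb, next to the quinone site, at 1116 and 1094. Neither Uqcrfs1, the Rieske iron-sulphur protein, at 159 and 143, nor Cycs, cytochrome c itself, at 172 and 175 by the brighter of its probes, reached the floors.

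Complex IV, cytochrome c oxidase, had 10 of its 11 ubiquitous genes detected, with 6 higher and 4 lower, a median of 0.01 (-0.05 with centred raw signals) and none past 1.2-fold. Cox4i1, the isoform of subunit 4 in most tissues and a site of regulation by ATP, was at 12352 and 12728. Cox5a, which packs against it, was at 8854 and 7597, 1.17-fold lower, and Cox5b, a zinc-binding subunit, at 15350 and 13824, 1.11-fold lower. Ndufa4, first assigned to complex I and now to complex IV, was at 11659 and 13118, 1.13-fold higher. Cox6b, which joins the monomers of the dimer, had a pair of probes, at 15086 and 15199 for the brighter and at 10822 and 9889 for the dimmer. Cox6c was at 3241 and 3318, Cox7c at 12155 and 11478, Cox6a1 at 11721 and 11120 and Cox8a at 9792 and 10306. Cox7a2 had a dim probe, at 274 and 276, and Cox7b was below the floors at 172 and 170.

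Complex V, the ATP synthase, had 14 of 15 genes detected, with 6 higher and 8 lower, a median of -0.04 (0.03 with the mean of detected probes) and none past 1.2-fold. In the catalytic F1 part, Atp5b, the catalytic beta subunit, was at 28157 and 29734. Atp5c1, the rotating gamma subunit, was at 9484 and 8433, 1.12-fold lower, and Atp5a1, the alpha subunit, at 388 and 343, 1.13-fold lower. The F1 genes Atp5d and Atp5e were at 4058 and 4173, and at 214 and 198. Atp5g1, Atp5g2 and Atp5g3 encode the same mature c subunit, the ring that proton flow turns, from separate genes. Atp5g1 was at 6149 and 7292, the highest difference of any member by its brightest probe at 0.25 (1.19-fold). Atp5g2 was at 1701 and 1598, and Atp5g3 at 23713 and 24320, so these genes of a single protein differed by 0.25, -0.09 and 0.04. The 4 genes of the stalk that holds F1 in place, Atp5f1, Atp5h, Atp5j and Atp5o, ran from -0.11 to 0.12, with 2 higher and 2 lower. Atp5j turned to 0.08 with the mean of its detected probes. Of these, Atp5j was at 11408 and 10556 by the probe used, at 590 and 709 by another and at 152 and 145, below the floor, by the remaining one. The small membrane subunit gene Atp5j2 was at 16618 and 16299, Atp5l at 6883 and 6222 and Atp5k below the floors at 133 and 143.

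The signals of different probes cannot be ranked as levels of their genes. The Atp5j probes differ 74.9-fold in intensity on the control array although they address the same gene. A probe below the floor, as for Cycs, Ndufs1, Uqcrfs1, Ndufb4, Cox7b and Atp5k, therefore gives no value for its gene here, and their transcripts cannot be called absent. In addition, the sample is whole tissue, where fewer cells of a type and less RNA per cell cannot be told apart.

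**Figure D3:**
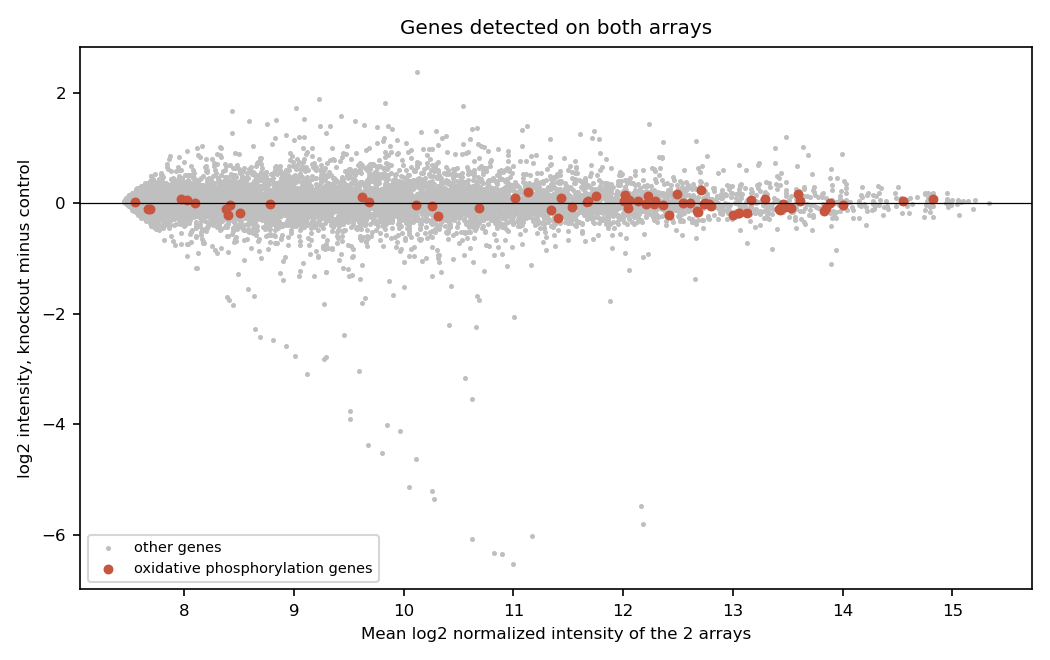
The log2 difference, knockout minus control, against the mean log2 normalized intensity for the 8931 genes detected on both arrays, with the 65 oxidative phosphorylation genes in colour. Members lie along 0 over the whole range of brightness, between -0.27 and 0.25, while other genes reach -6.54 and 2.38.

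The 3 muscle isoforms of complex IV were each slightly higher on the knockout array, none by 1.2-fold, and Cox7a1 turned lower with raw signals centred per array. Cox6a2, the heart and skeletal muscle form of subunit 6a, was at 4562 and 5018, a difference of 0.14. Its ubiquitous counterpart Cox6a1 differed by -0.08, and by -0.10 with its other probe. Cox8b, the muscle form of subunit 8, was at 2097 and 2404, a difference of 0.20, and its counterpart Cox8a differed by 0.07. Cox7a1, the muscle form of subunit 7a, was at 820 and 829, a difference of 0.02 that became -0.08 with those raw signals, and Cox7a2 differed by 0.01. The median of the 3 was 0.14.

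All 21 skeletal muscle markers on the list were detected on both arrays, 18 higher and 3 lower, their median difference being 0.21 (0.14 with centred raw signals). At least 1.2-fold higher were 7, against 14.6% of all detected genes, and 3 passed 1.5-fold, against 3.55%. With centred raw signals 4 were at least 1.2-fold higher and 1 lower, against 10.4% and 16.1% of all detected genes. With neqc the counts were 8 and 1, against 23.1% and 16.3%. The intensities of the 21 markers summed to 128322 in control and 139561 in knockout skin. The slow-muscle troponins Tnnc1 and Tnnt1, with the largest differences of the list, were at 524 and 895, and at 806 and 1297. Acta1, the skeletal actin, was at 22196 and 23631. The 3 lower markers were Myh4 at 380 and 332, Myl1 at 22042 and 21382 and Atp2a1 at 16221 and 15763. The part of muscle content in the differences of the muscle isoforms was not tested. Cox7a1 and Cox8b are also known as genes of brown fat. Its defining markers Ucp1, Dio2 and Prdm16 were below the floors on both arrays, with Ucp1 at 152 and 155. Of the 8 brown fat markers listed, 4 were detected and all 4 were higher: both isoforms, with Cidea at 2018 and 4826 and Elovl3 at 660 and 1463, which sebaceous glands also express. A narrower brown adipocyte list had 2 of 5 detected, Zic1 at 242 and 252 and Cpt1b, the muscle and brown fat form of carnitine palmitoyltransferase, at 340 and 360. White adipocyte markers had a median of -0.19 over 6 detected genes of 10, 1 higher and 5 lower. The intensities of all 10, detected or not, summed to 36430 and 31947, of which Cfd alone was 19974 and 16618.

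The remaining names found by the rule showed no larger difference. Cox4i2, the hypoxia-responsive isoform of subunit 4 best known from lung, was at 187 and 188, just above the floors, and Cox8c, a testis isoform, at 145 and 136, below them. Cox7a2l, which helps join complexes III and IV into supercomplexes, was at 3225 and 3285. Atp5s, a coupling factor of the ATP synthase that is not a fixed subunit, was at 345 and 321.

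Further subunits carry older or other names on the array, outside the rule, and were found through RefSeq. Of 11 such genes 7 were detected on both arrays, 3 higher and 4 lower, with a median of -0.04. Uqcr10, a small subunit of complex III, was at 17288 and 14300, 1.21-fold lower, but its other probe was closer at 15199 and 14017. Ndufa12, an accessory subunit of complex I, was at 4173 and 3541, 1.18-fold lower. Ndufa13, also called GRIM-19, was at 12308 and 13381, and Ndufv3 at 5704 and 6189, both 1.09-fold higher.

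Genes that build, feed and regulate the chain were close too. Of 36 assembly factor genes 31 were detected, 16 higher and 15 lower, with a median of 0.00; centred raw signals gave 10 higher and 21 lower. Ecsit, which acts in complex I assembly, was at 542 and 675, 1.24-fold higher, and Surf1, a complex IV assembly factor, at 362 and 288, 1.26-fold lower. No other assembly factor passed 1.2-fold with the authors' values, where 14.6% of all detected genes were past it higher and 10.4% lower. With centred raw signals 4 were past it on the lower side, against 16.1% of all detected genes. With neqc 2 were past it higher and 3 lower, against 23.1% and 16.3%. Of 18 citric acid cycle and pyruvate dehydrogenase genes 15 were detected, 6 higher and 9 lower, and all lay within 1.2-fold with the authors' values (1 was past it on the higher side with neqc). Cs, citrate synthase, was at 2506 and 2406, Idh2, the mitochondrial NADP-dependent isocitrate dehydrogenase, at 430 and 496, and Suclg1 at 3680 and 4148.

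Of 13 regulators of mitochondrial gene expression 11 were detected, 4 higher and 7 lower, with a median of -0.04. Ppargc1b, a coactivator of mitochondrial biogenesis, was at 315 and 459, 1.46-fold higher, the sole regulator past 1.2-fold with the authors' values. Of all detected genes 14.6% were past it higher and 10.4% lower. With neqc, and with the lowest signal subtracted, 2 regulators were also at least 1.2-fold lower, against 16.3% and 14.7% of all detected genes. The doubled floor left 5, none past it in either direction, against 16.7% of genes higher and 11.6% lower. Ppargc1a, the relative of Ppargc1b, was below the floors at 166 and 147. Esrra, the nuclear receptor these coactivators act on, was at 1395 and 1601, Tfam, which packs and transcribes mitochondrial DNA, at 394 and 440, Nrf1 at 908 and 850 and Twnk, the mitochondrial helicase, at 214 and 187. Among 14 detected genes of protein import, cristae and carriers, 8 were higher and 6 lower, and 3 and 11 with centred raw signals. Those raw signals put 3 at least 1.2-fold lower, against 16.1% of all detected genes. Vdac3, a channel of the outer membrane, was at 2087 and 1659, 1.26-fold lower and the sole gene of this list past 1.2-fold with the authors' values, while Timm17a, of the inner membrane translocase, was at 3652 and 3089 and Vdac2, in the other direction, at 829.6 and 977. With neqc, and with the lowest signal subtracted, 1 gene of the list was at least 1.2-fold higher, against 23.1% and 20.9% of all detected genes.

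Glycolytic genes, the other main route to ATP, had a median of 0.13, with 15 of 17 detected genes higher and 2 lower. With centred raw signals 11 were higher and 6 lower, with a median of 0.07. Pgam2, the muscle phosphoglycerate mutase, was at 1797 and 2183, 1.22-fold higher, and Aldoc, an aldolase, at 434 and 346, 1.26-fold lower. Slc2a1, the glucose transporter of keratinocytes, was at 5324 and 6337 and Ldha, lactate dehydrogenase A, at 17837 and 19291. Whether glycolytic and oxidative phosphorylation genes differ from each other in their shift was not tested. Among creatine and muscle energy genes, 6 of 8 detected were higher, with Mb, myoglobin, at 1337 and 1607, and Fabp3, a fatty acid binding protein of muscle and heart, at 888 and 658. The list is not separate from those above. Of its higher genes, Ckm and Mb are also skeletal muscle markers, and Pgam2 and Eno3 are also glycolytic genes.

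**Figure D4:**
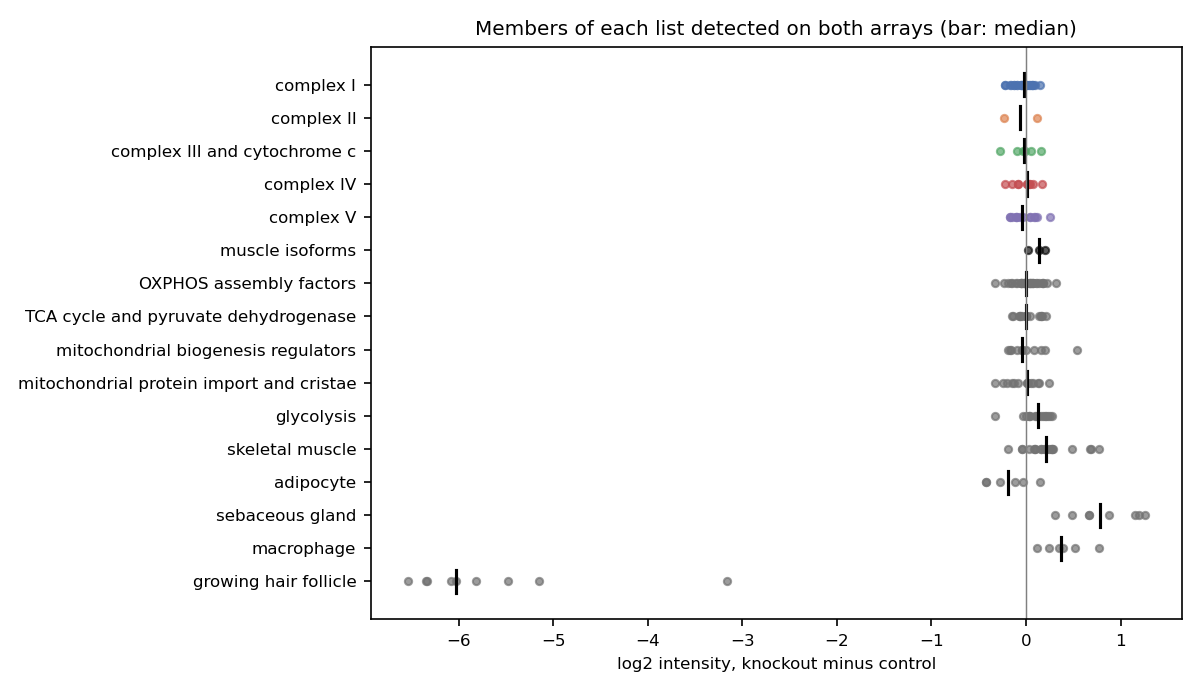
The log2 difference, knockout minus control, of each gene detected on both arrays, by list, with the median as a bar. The complexes and the mitochondrial lists centre on 0. The muscle isoforms (median 0.14) have a median near that of glycolysis (0.13) and below that of the skeletal muscle markers (0.21). Sebaceous gland (0.78), macrophage (0.37) and growing hair follicle markers (-6.03) lie apart.

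These small differences stand in samples whose tissue markers differed widely. Growing hair follicle markers were all lower among the 9 detected of 10, with a median of -6.03. The intensities of all 10, detected or not, summed to 161257 and 3226. Sebaceous gland markers were all higher, 8 detected of 9, with a median of 0.78, and macrophage markers 6 of 6 higher, with a median of 0.37. Basal keratinocyte markers, of the layer that expresses keratin 14, had a median of 0.04 over 7 genes, 5 higher and 2 lower. Suprabasal keratinocyte markers had a median of 0.30 over 5 detected genes, 4 higher and 1 lower, the lower being Ivl at 1903 and 1354. Neutrophil (median 0.32), endothelial (0.28) and T cell markers (0.87) each had 5 genes detected on both arrays, 4 higher and 1 lower. The 6 fibroblast markers were all higher (0.15), and the 3 erythrocyte markers detected on both arrays were all lower (-0.81). The part of tissue make-up in the members' differences was not tested. Vdr itself was at 2596 and 2076, 1674 and 1430, and 212 and 217 on its 3 probes, and where its probes lie relative to the deletion was not checked here.

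**Figure D5:**
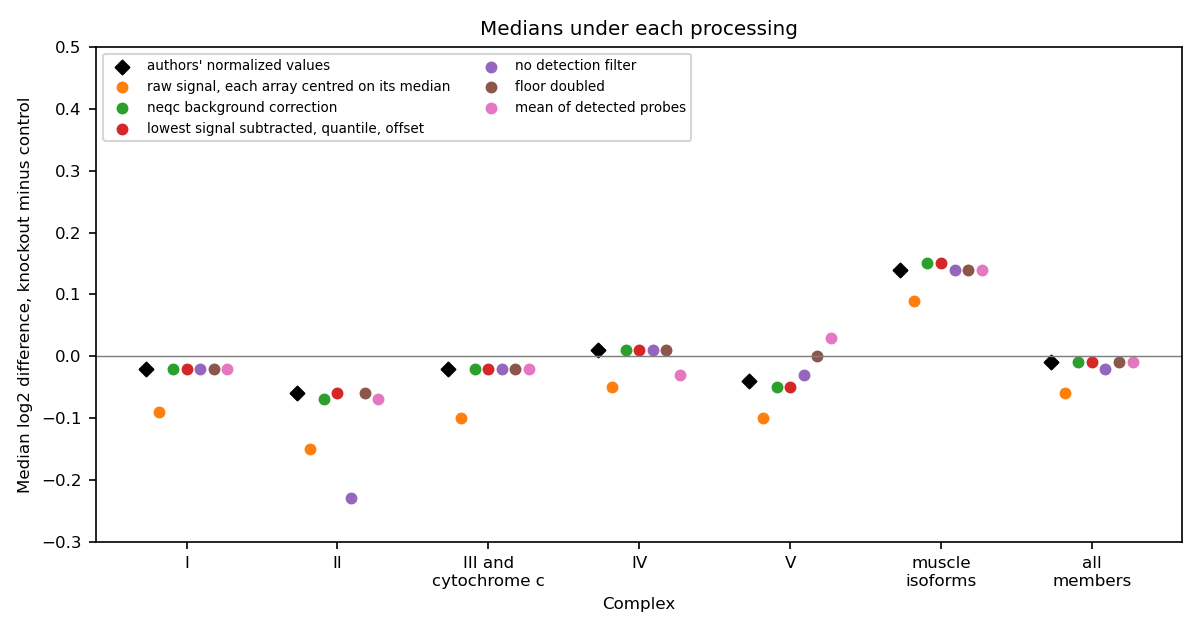
Median log2 difference, knockout minus control, of each complex, of the muscle isoforms and of all members, under the authors' normalized values (diamonds) and 6 other ways of processing (circles). All medians of complexes I, III and V and of all members stay between -0.10 and 0.03, the muscle isoforms between 0.09 and 0.15, and complex II falls to -0.23 where Sdhd is let in without a detection filter.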

How the data were processed

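Total RNA of wounded skin was measured on 2 Illumina arrays, 1 per genotype, labelled with biotin per the labels' protocols and read into values by GenomeStudio 2011.1, as the submitters' processing notes name it. The deposited tables hold linear intensity for 25697 probes, raw and as normalized by the authors. No source used here names the normalization; the sorted values of the normalized arrays differ by at most 1.6%. The deposited series matrix equals the normalized table (0 probes differ). The deposited detection p-values do not follow the signals (rank correlation 0.009 and 0.008), so only their number under 0.01 was used: 12588 and 12161 probes, the brightest on each array, counted as detected. Of 1293 probes of olfactory and vomeronasal receptors, 0.541% and 0.464% lay above these floors.

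Values are log2 normalized intensity with no offset, which keeps background and understates differences of dim genes. Each gene is its brightest probe. Probes were named through RefSeq (GRCm38.p6), 25697 less 321 unmatched. The neqc alternative (limma 3.58.1, R 4.3.3, offset 16) ran on p-values reassigned by rank of signal. Other computing used Python 3.11.15. Gene collapse and counts past 1.5-fold were tested on simulated data with larger planted differences and no detection filter. That does not cover the counts past 1.2-fold. Alternatives were raw signals centred per array, neqc, subtraction of the lowest signal, no detection filter, a doubled floor (344.6 and 353.6) and the mean of detected probes.

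No test was run with 1 array per group, and no column of other samples was present. Members and lists were chosen with earlier results of these data known. Named genes were the isoforms, members past 1.2-fold, the 3 largest differences and the brightest gene per complex, core subunits, members whose probes differ by over 0.5, and the 2 largest differences per list with Ppargc1a, Tfam, Esrra and Cs. The values of 1 member are not reported here. Other genes, the roles within complexes and the promoter motifs were chosen after their values were seen.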

Additional observations from a re-analysis of the deposited data

How the results depend on the processing

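Under the 6 alternatives, Cyc1, the 1 member past 1.2-fold with the authors' values, did not change sign. Of the 65 members detected on both arrays, 14 changed sign under at least 1 alternative, 11 with raw signals centred per array and 4 with the mean of detected probes, as did the medians of complexes IV and V. The largest of these was Atp5l, from -0.15 to 0.02 with the mean of detected probes. A value counted as moved when it shifted by more than the SD between probes of a gene, 0.14. By that measure 4 of the 65 members moved: Ndufb2 from -0.10 to -0.28 and Atp5e from -0.11 to -0.31 with neqc, and Atp5j from -0.11 to 0.08 and Atp5l with the mean of detected probes. The number of members at least 1.2-fold lower, 1 with the authors' values, was 4 with raw signals centred per array (Ndufb6, Sdhb, Cyc1 and Cox5a), 5 with neqc (Ndufb2, Ndufb6, Cyc1, Atp5a1 and Atp5e), 2 with the lowest signal subtracted (Ndufb6 and Cyc1), 2 without a detection filter (Sdhd and Cyc1) and 2 with the mean of detected probes (Sdhb and Cyc1). Cyc1 was among them each time, from -0.36 to -0.27. It has a single, bright probe, so dropping the filter, doubling the floor or averaging probes could not change its -0.27. No alternative put a member at 1.2-fold higher or at 1.5-fold in either direction. The complex II median went from -0.06 to -0.23 without a detection filter, which adds the dim Sdhd. Over all detected genes the share at least 1.2-fold higher was 23.1% and lower 16.3% with neqc (2064 and 1459 genes, against 1308 and 931 with the authors' values), and 10.4% and 16.1% with raw signals (928 and 1438). With raw signals the medians of complex IV and complex V were -0.05 and -0.10, and the share of members higher was 27.7% in place of 44.6%. The complex V median was 0.03 with the mean of detected probes and 0.00 with the doubled floor, so its sign is not settled. With 1 array per genotype no replicate could be left out. No paired analysis was possible because each genotype has 1 array. Dim probes limit Atp5a1, Atp5e, Cox7a2, Ndufb2, Ndufb5, Ndufb6, Ndufb7, Ndufb9 and Ndufb10, where remaining background compresses differences.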
